A study of Mus musculus with 66 samples.

Results

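The genes described here are 6 ligands of the epidermal growth factor (EGF) family, Areg, Ereg, Hbegf, Tgfa, Epgn and Btc, and 2 of the receptors of that family, Egfr and Erbb3. They were taken by gene symbol, with earlier results of these data known, and make up 8 of the 30452 genes in the deposited table. Each gene's abundance is the sum of the deposited values of its transcripts, in TPM, a transcript abundance unit that corrects for transcript length and for the size of each library. The study followed bulk RNA of the lower gut of wild-type C57BL/6 mice, bought at 6 weeks of age, through colitis caused by dextran sulfate sodium (DSS), a chemical in the drinking water that injures the colonic lining. The protocol gave 3% DSS for 6 days from experimental day 0, so the day 3 mice were killed while still receiving it. Uninjured control mice were killed at day 0 (4 mice), and injured mice at day 3, 6, 9, 14 or 20 (3 mice per day). Each of the 19 mice gave a section of mid-colon, of rectum and of anus, and the 9 mice of days 9, 14 and 20 also gave a section labelled squamous neo-epithelium, separate from the anal one, which makes 66 samples in all. The muscle layer had been removed from every section. Every group was of the same strain.

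EGF family ligands are made as proteins anchored in the cell membrane and are released by proteases, of which ADAM17 is the best known. The released ligand binds a receptor tyrosine kinase on the same or a neighbouring cell, and the receptors then pair and start the MAP kinase cascade, which switches on early genes such as Fosl1 and feedback inhibitors such as Dusp6. In the gut this signal is known for driving proliferation and closure of epithelial wounds. Amphiregulin (Areg), transforming growth factor alpha (Tgfa) and epigen (Epgn) bind the receptor EGFR, while epiregulin (Ereg), heparin-binding EGF (Hbegf) and betacellulin (Btc) bind both EGFR and ERBB4. ERBB3, whose own kinase is impaired, binds neuregulins and signals by pairing with ERBB2.

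On the mouse genome GRCm38 (mm10), with GENCODE M21 annotation, Epgn lies at chr5:91027464-91035215, Ereg at chr5:91074622-91093646, Areg at chr5:91139599-91148432 and Btc at chr5:91357261-91402994, the first 3 on the forward and Btc on the reverse strand. These 4 are the only protein-coding genes among the 7 RefSeq genes of that span of 376 kb. The long non-coding RNA gene Gm19610 overlaps the start of Ereg in RefSeq. Tgfa lies at chr6:86195223-86275719 and Egfr at chr11:16752203-16918158 on the forward strand, and Erbb3 at chr10:128567523-128589652 on the reverse strand. From the reference table of promoters (RefSeq, GRCm38.p6), those of 5 of the 8 genes were searched, and Hbegf was left out of the search. The 250 bases before the start of the 3 ligand genes of the chromosome 5 cluster that it holds are shown because these neighbours followed different courses in the data below. Capitals mark TGACG or its reverse complement, the core of the cyclic AMP response element.
Areg promoter, chr5:91139349-91139648, forward strand: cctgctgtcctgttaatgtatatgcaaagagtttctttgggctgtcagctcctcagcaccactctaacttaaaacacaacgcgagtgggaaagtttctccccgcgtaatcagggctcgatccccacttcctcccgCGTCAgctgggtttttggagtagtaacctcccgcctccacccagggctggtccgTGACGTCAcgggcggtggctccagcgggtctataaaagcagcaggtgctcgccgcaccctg
Epgn promoter, chr5:91027267-91027566, forward strand: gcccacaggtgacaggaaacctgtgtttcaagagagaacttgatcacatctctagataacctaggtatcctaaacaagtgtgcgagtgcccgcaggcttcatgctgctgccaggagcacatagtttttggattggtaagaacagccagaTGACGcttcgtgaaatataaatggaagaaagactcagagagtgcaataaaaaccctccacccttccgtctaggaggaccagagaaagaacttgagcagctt
Btc promoter, chr5:91402945-91403244, reverse strand: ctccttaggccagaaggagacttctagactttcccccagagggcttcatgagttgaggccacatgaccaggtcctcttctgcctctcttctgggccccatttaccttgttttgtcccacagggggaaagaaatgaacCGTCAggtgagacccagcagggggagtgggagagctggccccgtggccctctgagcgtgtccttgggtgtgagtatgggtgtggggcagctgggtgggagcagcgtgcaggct
The coordinates cover the 300 bases of the searched window, of which the last 50 follow the start and hold no match. Areg had 3 matches, with first bases at -115, -61 and -58 from the start, of which the last 2 overlap in a palindrome. Epgn had 1 match, at -101, and Btc had 1, at -113. The same core is in 20.8% of the 32851 promoter windows of that length, searched on both strands. The AP-1 motif TGANTCA, in 7.81% of the windows, and the TEAD motif GGAATG, in 14.7%, were in none of the 5 promoters. A match is a run of letters and not a measured binding site.

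Between 11268 and 13789 genes had at least 1 TPM per sample, and mitochondrial genes took between 6.26% and 28.5% of the total. The table holds no read counts, so depth is unknown and no counting interval is given. The summed level of 7 colonic epithelial markers (among them Car1, Aqp8 and Krt20) ran from 12692 to 15532 TPM in the mid-colon and from 12320 to 13765 TPM in the rectum at day 0. The anus had 1312 to 3982 TPM of it at day 0, beside 9978 to 16341 TPM of 7 squamous markers (among them Krt5, Krt13 and Krt14). Neo-epithelium had 14800 to 32672 TPM of the squamous markers, and 27.7 to 6030 TPM of the colonic ones. All markers of these lists were found in the table. Skeletal muscle markers (4 genes) summed to 833 to 9319 TPM in the day 0 anus and to at most 105 TPM in any rectal section of days 0, 6 and 9. Differences below are of log2(TPM + 1), with their standard error (SE), from limma, and understate the change of genes with few TPM. A gene passed, or was called, at a Benjamini-Hochberg adjusted p under 0.05 over all genes tested, and rose and fell are used only of such genes. A gene was tested where the number of samples with 1 TPM or more reached the size of the smaller group. The comparisons with day 0 of a section share its 4 control samples. In whole sections, fewer cells of a type and less RNA per cell cannot be told apart.

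The uninjured sections differed in their ligands. In the day 0 anus, Hbegf and Ereg were higher and Erbb3 was lower than in the rectum of the same mice. Hbegf was at 18.2, 28.5, 29.7 and 29.8 TPM in the anus and at 3.84, 4.04, 4.42 and 8.67 TPM in the rectum. Ereg was at 4.64, 4.66, 5.90 and 6.03 TPM against 0.755, 0.778, 0.947 and 1.31 TPM. Neither pair of ranges overlapped, and the log2 differences were 2.18 (SE 0.25, adjusted p 7.01e-05) for Hbegf and 1.70 (SE 0.16, adjusted p 1.96e-05) for Ereg. Ereg met the filter of this test through its anal samples, as too few rectal ones reached 1 TPM. Btc was higher by 0.84 (SE 0.16, adjusted p 0.00126). Erbb3 was lower by 1.63 on the log2 scale, at 21.3, 21.9, 22.6 and 51.6 TPM against 81.1 to 90.0 TPM (difference -1.63, SE 0.26, adjusted p 4.08e-04). The anal sample with 51.6 TPM of Erbb3 came from the mouse whose anal section had the highest colonic marker sum, 3982 TPM, while those of the other 3 mice ran from 1312 to 2179 TPM. In all, 4 of the 7 members tested passed, where 60.3% of the 13158 genes tested did, so this count is near the background. The median over all genes was -0.15, and 0.06 after median-ratio scaling, which sets each library to the typical ratio of its genes instead of its total. Under that scaling Areg also passed, with a difference of 0.72 instead of 0.47 (SE 0.22, adjusted p 0.0833), and without mouse 4 both Areg (0.55) and Tgfa (-0.50) passed. Between rectum and mid-colon at day 0, limma called 0 of the 6 members tested and 1.79% of all genes, and 0 of the 6 had an unadjusted p under 0.05. The median over all genes there was 0.21, and 0.06 after median-ratio scaling.

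Amphiregulin had the highest mean level of the 6 ligands in the rectum on each day. In the rectum it was at 11.5, 12.5, 18.5 and 18.5 TPM at day 0 and at 51.1, 72.7 and 84.04 TPM at day 6, and it was at 31.1, 62.6 and 76.1 TPM at day 9. It was at 33.4, 42.2 and 50.2 TPM at day 14 and at 31.0, 33.0 and 38.6 TPM at day 20. Every rectal sample from day 3 on was above all 4 controls. The rise was 2.11 (SE 0.22, adjusted p 3.65e-04) at day 6, 1.76 (SE 0.31, adjusted p 0.00132) at day 9, 1.41 (SE 0.21, adjusted p 0.0109) at day 14 and 1.14 (SE 0.20, adjusted p 0.0237) at day 20. The day 20 call was lost in 6 of the 7 fits that left out 1 mouse (mouse 1, 2, 3, 4, 17 or 18), with differences from 1.02 to 1.24.

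Epiregulin started lower and changed more. In the rectum it was at 0.755 to 1.31 TPM at day 0, at 5.18, 11.5 and 34.8 TPM at day 6 and at 13.8, 15.4 and 26.2 TPM at day 9. It was then at 2.20, 8.15 and 11.0 TPM at day 14 and at 1.498, 3.83 and 4.77 TPM at day 20. No rectal sample from day 6 on overlapped the controls, although the samples of day 6 and day 14 spread widely. The rise was 2.86 (SE 0.49, adjusted p 0.00265) at day 6, 3.27 (SE 0.23, adjusted p 9.54e-06) at day 9 and 1.87 (SE 0.42, adjusted p 0.0266) at day 14, and the difference at day 20 was 1.09 (SE 0.29, adjusted p 0.0558), which passed after median-ratio scaling (1.12) and without mouse 18 (1.45). The day 14 call was lost without mouse 1, 2, 3, 4, 15 or 16. Ereg met the filter in these tests through the injured samples, as too few controls reached 1 TPM. Neutrophil markers (5 genes, among them S100a8 and Mmp8) moved in the same sections, from a sum of 0.797 to 5.25 TPM at day 0 to 346, 676 and 3431 TPM at day 6 and 10412 to 12341 TPM at day 9. The 3 day 6 samples with 346, 676 and 3431 TPM of neutrophil markers had 11.5, 5.18 and 34.8 TPM of Ereg. Those of day 9, with 10412, 11777 and 12341 TPM, had 26.2, 15.4 and 13.8 TPM, and those of day 14, with 176, 1460 and 4514 TPM, had 2.20, 11.0 and 8.15 TPM. With 3 mice a day, the relation of the 2 measures within a day was not tested. Macrophage markers (5 genes) summed to 77.7 to 93.7 TPM at day 0 and to 264 to 652 TPM at day 6, and fibroblast markers (5 genes) to 482 to 590 TPM and 540 to 1258 TPM. Like the neutrophil sum, each was highest at day 6 in the mouse with 34.8 TPM of Ereg. At day 9 the samples with 13.8, 15.4 and 26.2 TPM of Ereg had 632, 460 and 591 TPM of macrophage markers. At day 14 those with 2.20, 8.15 and 11.0 TPM of Ereg had 106.5, 238 and 317 TPM. Squamous markers (7 genes) summed to 12.9 to 124 TPM in the rectum at day 0, 8.38 to 37.4 TPM at day 6 and 8.01 to 577 TPM at day 20. At day 9 the samples with 13.8, 15.4 and 26.2 TPM of Ereg had 754, 128 and 106 TPM of them. At day 14 those with 2.20, 8.15 and 11.0 TPM of Ereg had 25.0, 708 and 992 TPM. The part of these cells in the level of Ereg was not tested.

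Hbegf, at chr18:36504927-36515805 on the reverse strand of GRCm38, followed a shorter course in the rectum, with 3.84 to 8.67 TPM at day 0 and 13.2, 14.4 and 23.2 TPM at day 6. It was at 7.71, 14.9 and 19.3 TPM at day 9, at 9.32, 12.5 and 17.6 TPM at day 14 and at 5.87, 6.23 and 7.18 TPM at day 20. The ranges of day 9 and day 20 overlapped the controls, which the single control at 8.67 TPM sets. Hbegf rose by 1.54 (SE 0.28, adjusted p 0.00328) at day 6, 1.24 (SE 0.33, adjusted p 0.0127) at day 9 and 1.20 (SE 0.29, adjusted p 0.0337) at day 14. The day 9 call was lost without mouse 13, and that of day 14 without mouse 1, 2, 4, 15 or 16.

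Of the remaining ligands, Btc rose in the rectum at day 9, from 2.63 to 3.92 TPM at day 0 to 5.24, 6.40 and 8.18 TPM (difference 0.81, SE 0.18, adjusted p 0.00508). At day 6 its difference of 0.24 did not pass, but after median-ratio scaling it was 0.44 and did. Tgfa lay between 6.10 and 13.2 TPM in all 19 rectal samples, and its differences from day 0 ran from -0.39 to 0.07, none of which passed. Epgn stayed at or below 0.556 TPM in every rectal sample and was below the filter there.

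**Figure D1:**
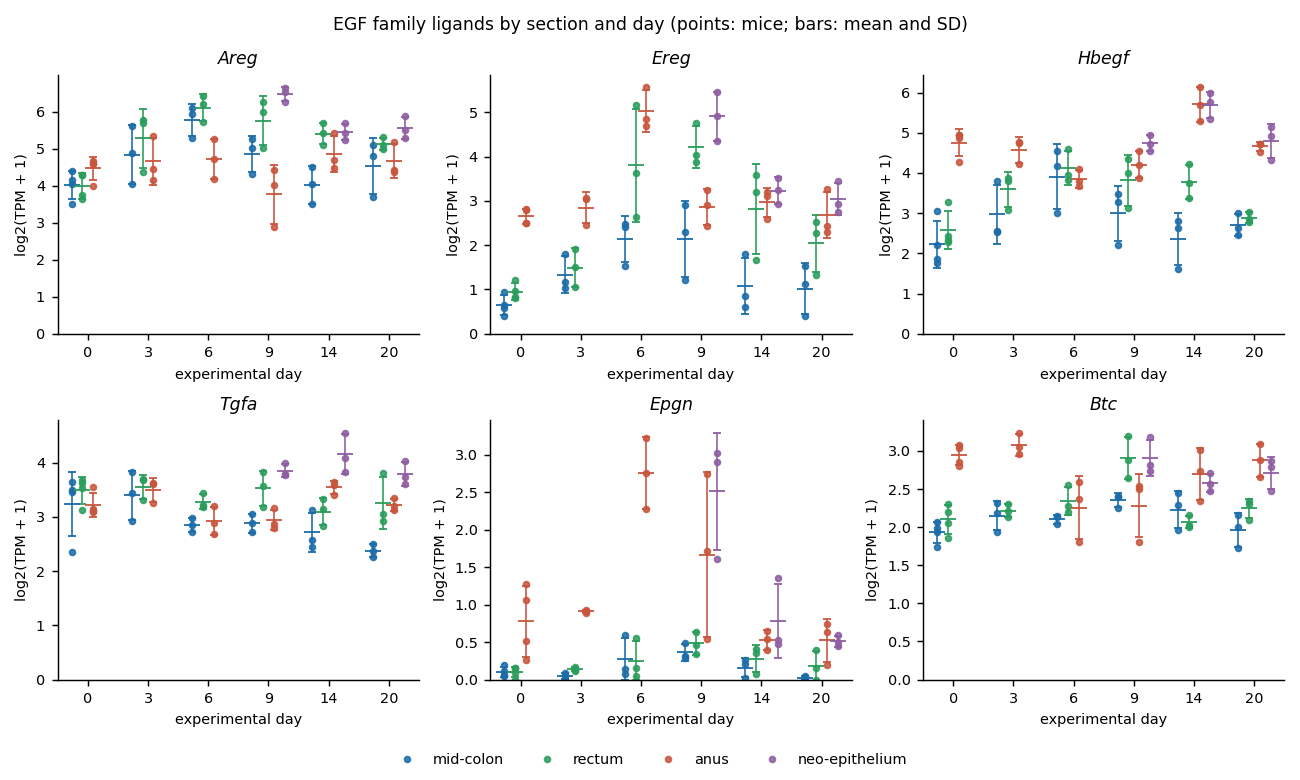
Level of the 6 ligands, log2(TPM + 1) on the vertical axis, by experimental day and section; each point is 1 mouse and the bars are the mean and SD of 3 mice (4 at day 0). Areg, Ereg and Hbegf stand above day 0 in the rectum at day 6, Tgfa lies between 6.10 and 13.2 TPM in the rectum, and Epgn is near 0 outside the anus and the neo-epithelium.

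The receptors moved in opposite directions in the rectum. Egfr was at 6.96, 8.59, 10.6 and 11.1 TPM at day 0, at 12.2, 16.6 and 18.0 TPM at day 6 and at 19.5, 28.9 and 29.8 TPM at day 9. At days 14 and 20 it lay between 8.63 and 15.0 TPM, back within reach of the controls. It rose by 0.69 (SE 0.19, adjusted p 0.0160) at day 6 and by 1.39 (SE 0.20, adjusted p 5.12e-04) at day 9, and the day 6 call was lost without mouse 10. Over the 21 groups of section and day, the rectum at day 9 had the highest mean of Egfr, 26.1 ± 5.68 TPM (SD, n = 3), and its range did not overlap that of the next group.

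Erbb3 was at 81.1, 86.7, 88.2 and 90.0 TPM in the day 0 rectum, the highest group mean of the series for this gene, and at 39.4, 43.2 and 51.2 TPM at day 6. It was at 14.3, 26.9 and 37.7 TPM at day 9, at 40.5, 49.6 and 61.4 TPM at day 14 and at 47.2, 52.8 and 67.0 TPM at day 20. All 12 rectal samples of days 6 to 20 were below all controls. Erbb3 fell by 0.95 on the log2 scale at day 6 (SE 0.11, adjusted p 4.96e-04), by 1.78 at day 9 (SE 0.27, adjusted p 6.08e-04), by 0.78 at day 14 (SE 0.14, adjusted p 0.0151) and by 0.64 at day 20 (SE 0.13, adjusted p 0.0333). The day 14 call was lost without mouse 1, 2 or 3, and that of day 20 without mouse 1, 2, 3, 4, 17 or 18. The colonic marker sum of the rectum was 14644 to 16093 TPM at day 6, above the controls, and 5214 to 6366 TPM at day 9. It is a sum of 7 genes and not a measure of the amount of epithelium. The part of epithelial change in the Erbb3 values of either day was not tested.

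**Figure D2:**
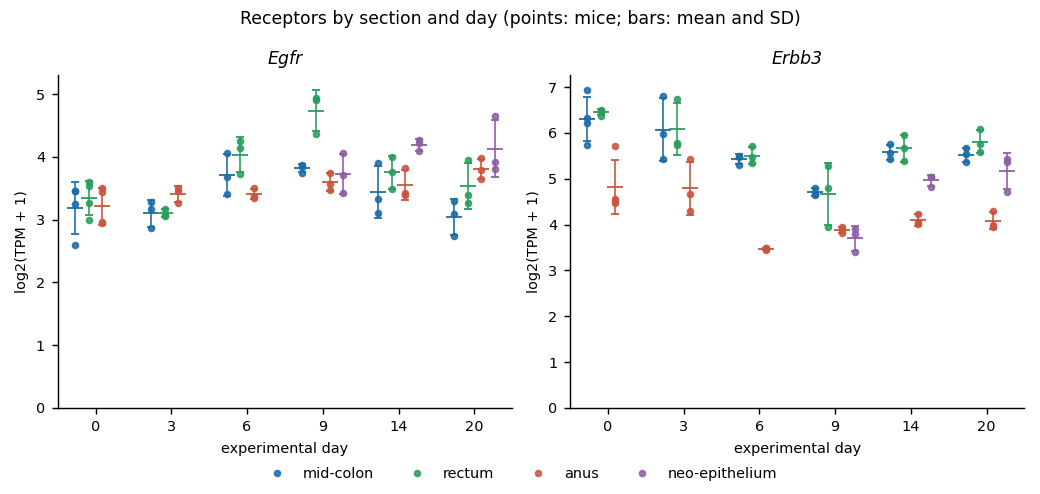
Level of the receptors Egfr and Erbb3, log2(TPM + 1), by experimental day and section; points are mice and bars are the mean and SD (3 mice, 4 at day 0). In the rectum Egfr is highest at day 9, where Erbb3 is lowest.

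Set against the background, 5 of the 7 members tested in the rectum at day 6 were called, where 48.7% of the 12615 genes tested were, with a median over all genes of -0.27 (-0.06 after median-ratio scaling). At day 9, 6 of 7 were called against 53.5% of all genes (median 0.13). At day 14, 4 of 7 were called against 15.8% (median -0.02), and at day 20, 2 of 7 against 7.68% (median -0.03). These 2 backgrounds hang on single mice: the 2017 genes called at day 14 became 386 without mouse 16 and 5165 without mouse 14, and the 973 of day 20 became 52 without mouse 1 and 2873 without mouse 19. The counts of days 6 and 9 are therefore on a background in which about as many genes passed as not. Ereg was called at days 6, 9 and 14. Its place in those counts rests on the injured samples, through which it met the filter. At day 3, while DSS was still being given, limma called 0 of 7 members and 6.62% of all genes, and 3 members had an unadjusted p under 0.05. Areg was then at 19.5, 50.9 and 54.0 TPM (difference 1.29, SE 0.34, adjusted p 0.0565), and Erbb3 at 52.3, 53.7 and 107 TPM. Mouse 7 had both the lowest Areg and the highest Erbb3. Without it, Areg (1.75), Ereg (0.76), Hbegf (1.26) and Erbb3 (-0.70) were all called, and without mouse 3 Hbegf was (1.24).

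**Figure D3:**
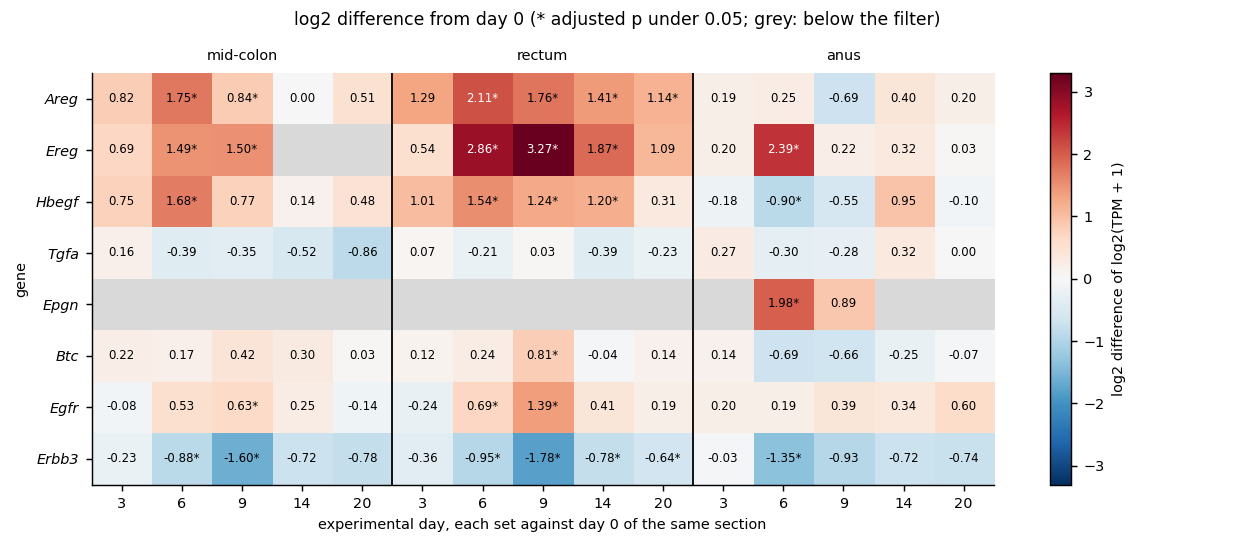
Differences of log2(TPM + 1) from day 0 of the same section for the 8 genes (rows) at days 3, 6, 9, 14 and 20 (columns) in mid-colon, rectum and anus. An asterisk marks an adjusted p under 0.05 and grey a gene below the filter; the days of a section share their 4 control samples.

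Egfr has several annotated transcripts, of which Egfr-201 encodes 1210 amino acids and Egfr-202 a shorter product of 655. At day 0 both had similar levels in the rectum, with 4.00 ± 0.220 TPM for Egfr-201 and 4.14 ± 0.988 TPM for Egfr-202 (SD, n = 4). At day 6 the shorter one was the more abundant, with 7.79 ± 0.957 against 5.72 ± 1.48 TPM (SD, n = 3). At day 9 the order was the other way, with 13.7 ± 4.198 TPM for Egfr-201 and 6.31 ± 1.80 TPM for Egfr-202. Transcripts were not tested singly. In the anus Egfr-201 had most of the gene's level, 72.0% of it at day 0, against 44.2% in the rectum and 37.6% in the mid-colon. These shares are estimates from short reads that several transcripts can share, and the rest falls to the protein-coding Egfr-203 (136 amino acids) and the non-coding Egfr-204 and Egfr-205. Egfr-204 had 11.4% in the day 0 rectum and was listed at 0 in the day 0 anus, and Egfr-203 had its highest mean, 4.196%, in the anus at day 14. In the rectum Egfr-204 had a mean of 1.165 TPM at day 0 and of 5.915 TPM at day 9, when its share was 23.49%. By these estimates, part of the higher Egfr level at day 9 fell to a non-coding transcript.

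**Figure D4:**
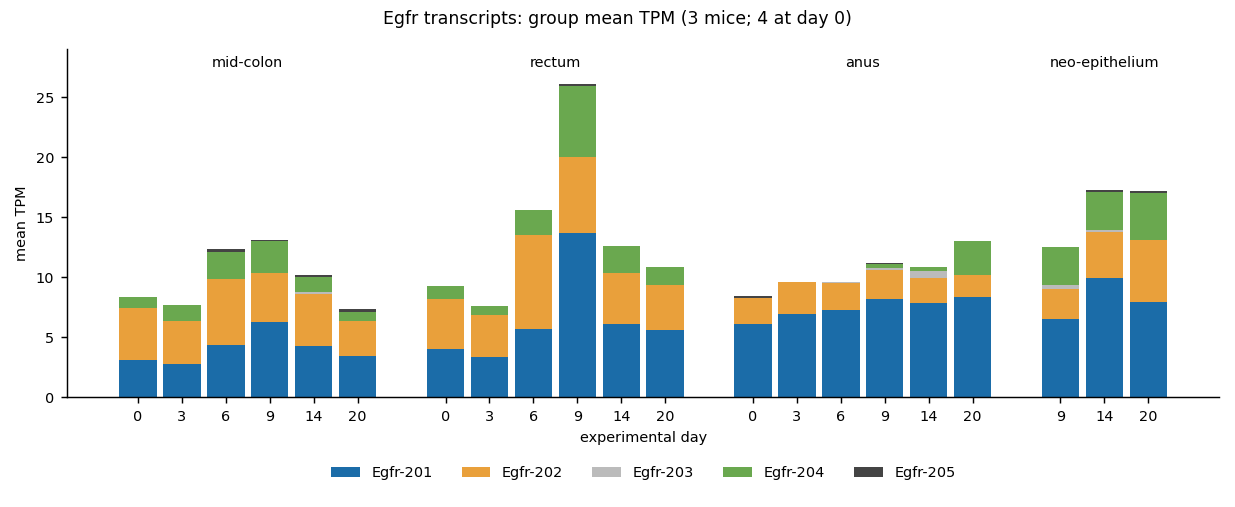
Mean TPM of the 5 annotated Egfr transcripts, stacked, for each section and day (3 mice, 4 at day 0). Egfr-201 exceeds Egfr-202 in every anal group and in the rectum at day 9, and the reverse holds in the rectum at day 6.

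In the mid-colon, Areg, Ereg, Hbegf and Erbb3 were called at day 6, Areg, Ereg, Egfr and Erbb3 at day 9, and no member after that. Areg was at 10.3, 15.5, 16.8 and 19.8 TPM at day 0, at 37.7, 59.8 and 67.2 TPM at day 6 and at 18.8, 31.2 and 37.1 TPM at day 9, and at day 14, at 10.3, 15.4 and 21.8 TPM, it was spread over the range of the controls. It rose by 1.75 at day 6 (SE 0.25, adjusted p 0.00323) and 0.84 at day 9 (SE 0.27, adjusted p 0.0289). Ereg was at 0.323 to 0.912 TPM at day 0, at 1.89, 4.29 and 4.54 TPM at day 6 and at 1.33, 3.93 and 6.49 TPM at day 9, above the controls in each case, and it rose by 1.49 (SE 0.25, adjusted p 0.00640) and 1.5 (SE 0.34, adjusted p 0.00531). No control reached 1 TPM, so Ereg met the filter on these days through the injured samples. Its place in the counts of both days rests on those samples, and it was below the filter at days 14 and 20. Hbegf rose by 1.68 at day 6 (SE 0.40, adjusted p 0.0250), although its lowest sample, 7.00 TPM, lay under the highest control, 7.35 TPM, and its call was lost without mouse 1, 2, 8 or 10. Erbb3 fell by 0.88 on the log2 scale at day 6 (SE 0.24, adjusted p 0.0387; lost without mouse 1, 2, 3, 8, 9 or 10) and by 1.60 at day 9 (SE 0.24, adjusted p 5.71e-04), from 52.4 to 121 TPM at day 0 to 24.0, 24.3 and 26.8 TPM. Egfr rose at day 9 by 0.63 (SE 0.23, adjusted p 0.0481), a call lost without mouse 1, 2, 11, 12 or 13, and the Areg call of that day was lost without mouse 2, 12 or 13. At day 6, 4 of the 7 members tested were called against 14.9% of the 11967 genes tested (1785 genes, 596 without mouse 10 and 5248 without mouse 4), with a median over all genes of -0.24 (-0.04 after median-ratio scaling, under which Egfr also passed, 0.75). At day 9, 4 of 7 were called against 43.4% (median 0.09). The colonic marker sum of the mid-colon was 5722 to 7077 TPM at day 9, and the neutrophil sum was 0.125 to 2.38 TPM at day 0, 36.0 to 198 TPM at day 6 and 448 to 2107 TPM at day 9. Their part in these differences was not tested. Without mouse 4, whose mid-colon had the lowest control level of Tgfa, 4.11 TPM, Tgfa was below the other controls and passed at days 6, 9, 14 and 20 (differences from -1.15 to -0.65). Without that mouse Erbb3 passed too at day 14 (-0.91) and day 20 (-0.97), beside -0.72 (SE 0.25, adjusted p 0.148) and -0.78 (SE 0.25, adjusted p 0.125) with all mice. limma called 0 members at day 3 (0.375% of all genes; 2 members with an unadjusted p under 0.05; median 0.14, and 0.03 after median-ratio scaling), 0 of 6 tested at day 14 (4.36%; 1 member) and 0 of 6 at day 20 (1.56%; 2 members).

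Whether rectum and mid-colon responded differently was tested as the difference of their changes from day 0. At day 6 limma called 0 of 7 members and 0% of the 12986 genes tested, and 730 genes, Ereg among them (1.37, adjusted p 0.834), had an unadjusted p under 0.05. At day 9, 1 of 7 members passed, where 6.55% of all genes did. Ereg rose more in the rectum, by 1.78 (SE 0.45, adjusted p 0.0283), and its call was lost without mouse 1, 2, 3, 4 or 13 and with a pseudocount of 0.1 (1.73), no filter or 1 fit over all groups (1.78 in both). Too few day 0 samples reached 1 TPM, so Ereg met the filter in this test through its day 9 samples. With the mouse as a block, Areg passed too, with an unchanged difference of 0.93 (adjusted p 0.0259 with the block and 0.284 without it). For Egfr the difference was 0.75 (SE 0.32, adjusted p 0.211), and for Erbb3 -0.18 (SE 0.39, adjusted p 0.867).

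In the anus Ereg and Epgn rose at day 6, when Ereg rose in the rectum and the mid-colon too. Ereg was at 4.64 to 6.03 TPM at day 0 and at 24.7, 27.7 and 46.7 TPM at day 6, and at day 9 it was at 4.45, 6.46 and 8.51 TPM. Epgn was at 0.202, 0.422, 1.08 and 1.42 TPM at day 0, at 3.83, 5.79 and 8.37 TPM at day 6 and at 0.455, 2.29 and 5.66 TPM at day 9. At day 6 both were above all controls, and at day 14 Epgn was at or under 0.566 TPM. The rise at day 6 was 2.39 for Ereg (SE 0.24, adjusted p 6.79e-04) and 1.98 for Epgn (SE 0.33, adjusted p 0.00569). Epgn met the filter in that test through its day 6 samples, as too few controls reached 1 TPM. Hbegf fell by 0.90 on the log2 scale at day 6 (SE 0.22, adjusted p 0.0280), from 18.2 to 29.8 TPM to 11.8, 12.8 and 16.3 TPM, a call lost without mouse 2, 3, 8 or 9. It was at 38.1, 50.4 and 69.7 TPM at day 14, above all controls, where the test was not passed (0.95, SE 0.25, adjusted p 0.0837). Areg did not pass on any day in the anus, with differences from -0.69 to 0.40, and lay between 6.34 and 41.5 TPM over all 19 anal samples. Erbb3 fell by 1.35 on the log2 scale at day 6 (SE 0.30, adjusted p 0.0203; lost without mouse 8, 9 or 10), to 9.93, 10.2 and 10.2 TPM. The colonic marker sum of the anus was 1312 to 3982 TPM at day 0, 30.4 to 83.2 TPM at day 6 and 32.0 to 62.2 TPM at day 9, and its part in the value of Erbb3 was not tested. The neutrophil sum of the anus was 346 to 1365 TPM at day 0, 1343 to 3805 TPM at day 6, 906 to 3087 TPM at day 9 and 823 to 4823 TPM at day 14; at the last 2 of these days its range still reached above the controls. The macrophage sum was 123 to 176 TPM at day 0, 340 to 528 TPM at day 6 and 185 to 248 TPM at day 9. Markers of type 2 innate lymphoid cells (5 genes, among them Gata3 and Il1rl1, which other cells also express) summed to 9.40 to 25.3 TPM at day 0. The sum was 79.6 to 168 TPM at day 6 and 15.0 to 18.2 TPM at day 9. Of that list, Il13 and Il5 were at 0 in every anal sample of days 6 and 9, so these sums came from its other genes. The means of Ereg and Epgn were also highest at day 6, though Epgn at day 9 still overlapped day 6. The part of these cells in the values of Ereg and Epgn was not tested. At day 6, 4 of 8 members were called against 15.0% of the 13730 genes tested (2060 genes, and 876 without mouse 9; median 0.07, and -0.05 after median-ratio scaling). After median-ratio scaling Erbb3 was also called at day 9 (-1.02, beside -0.93, SE 0.30, adjusted p 0.131). limma called 0 members at day 3 (0.0440% of all genes; 0 members with an unadjusted p under 0.05), 0 at day 9 (5.09%; 3 members), 0 at day 14 (4.27%; 2 members) and 0 at day 20 (1.46%; 2 members).

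Tested directly, the responses of anus and rectum differed for most ligands. At day 6 the change in the anus was below that in the rectum for Hbegf (-2.45, SE 0.38, adjusted p 6.70e-04), Areg (-1.86, SE 0.38, adjusted p 0.00391) and Btc (-0.93, SE 0.27, adjusted p 0.0266; lost without mouse 1, 2, 3, 9 or 10), and above it for Epgn (1.82, SE 0.37, adjusted p 0.00384). These are 4 of 8 members, against 21.5% of the 14571 genes tested (median 0.26, and -0.05 after median-ratio scaling, under which Egfr also passed, -0.86). For Ereg, which rose in both sections at day 6, the difference of -0.47 (SE 0.60, adjusted p 0.617) did not pass. The Epgn difference was 2.37 with a pseudocount of 0.1 and no longer passed. Only anal samples brought Epgn over the filter in the day 6 test, since no rectal sample reached 1 TPM. At day 9 the change in the anus was below that in the rectum for Ereg (-3.06, SE 0.33, adjusted p 2.76e-05), Areg (-2.45, SE 0.51, adjusted p 0.00365), Hbegf (-1.79, SE 0.44, adjusted p 0.0102), Btc (-1.47, SE 0.29, adjusted p 0.00269) and Egfr (-1, SE 0.30, adjusted p 0.0279). These are 5 of 8 members, against 19.9% (median -0.12). With the mouse as a block, Egfr no longer passed (adjusted p 0.0598), and without mouse 3, 4, 11 or 13 it did not either. Without mouse 12 Hbegf did not pass, and without mouse 4 Erbb3 did (1.17).

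The neo-epithelium had the highest mean level of Areg of all 21 groups, with 76.2, 90.6 and 98.9 TPM at day 9. It fell by 0.92 on the log2 scale to day 20 (SE 0.19, adjusted p 0.0169), when it was at 38.3, 44.3 and 57.3 TPM. Ereg fell from 19.4, 29.5 and 42.8 TPM to 5.77, 6.63 and 9.93 TPM (difference -1.86, SE 0.32, adjusted p 0.00969), and Epgn from 2.05, 6.45 and 7.14 TPM to 0.366, 0.410 and 0.503 TPM (difference -2, SE 0.38, adjusted p 0.0134). Erbb3 rose from 9.53, 13.0 and 13.9 TPM to 25.2, 40.0 and 41.9 TPM (difference 1.46, SE 0.24, adjusted p 0.00891). The samples of these days did not overlap for any of the 4 genes, which are 4 of 8 members against 26.2% of all genes (3459 genes, and 1021 without mouse 13; median -0.14, and 0.00 after median-ratio scaling). The Areg call was lost without mouse 12, 13 or 17 and the Epgn call without mouse 12 or 13. Epgn met the filter in this comparison only through its day 9 samples. Its place in the count therefore rests on the group where it was high. The neutrophil sum of the neo-epithelium was 6814 to 17204 TPM at day 9 and 480 to 5418 TPM at day 20, and its colonic sum 27.7 to 554 TPM and 2753 to 6030 TPM. The uninjured anus, also rich in squamous markers, already had 346 to 1365 TPM of the neutrophil list. Which cells carried that list was not tested. Fibroblast markers summed to 1944 to 2897 TPM at day 9 and 468 to 962 TPM at day 20, squamous markers to 30496 to 32672 TPM and 19633 to 24020 TPM, and those of type 2 innate lymphoid cells to 26.4 to 111 TPM and 5.78 to 13.6 TPM, in each case without overlap. Of the last list, Il5 was at 0 in every day 9 sample and Il13 in every day 20 sample. The part of these cells in the differences was not tested.

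Against the rectum of the same mice over days 9 to 20, the neo-epithelium had more of Hbegf (1.58, SE 0.20, adjusted p 9.27e-06, higher in 9 of 9 mice), Tgfa (0.64, SE 0.16, adjusted p 0.00308, 7 of 9), Ereg (0.70, SE 0.25, adjusted p 0.0325, 7 of 9) and Btc (0.33, SE 0.11, adjusted p 0.0254, 7 of 9). The fit took day as a factor and did not pair the sections of a mouse, and the counts of mice are a description beside it. On single days Ereg did not pass (0.68 at day 9, 0.42 at day 14 and 1.01 at day 20), nor without a filter, and Btc was at 0.00 at day 9, 0.52 at day 14 and 0.46 at day 20 and did not pass either. Hbegf did not pass at day 9 alone (0.92), and Tgfa passed at day 14 alone (1.06). The neo-epithelium had less Erbb3 (-0.77, SE 0.16, adjusted p 9.24e-04, lower in 9 of 9 mice), which passed on no single day (-0.97, -0.70 and -0.64). Areg was higher in 8 of 9 mice (0.40, SE 0.16, adjusted p 0.0560), and passed with the mouse as a block (adjusted p 0.0312). The count is 5 of the 7 members tested, against 42.9% of the 13024 genes tested (median 0.00). Squamous markers summed to 8.01 to 992 TPM in these rectal sections, and their part in the differences was not tested. Hbegf reached 39.8, 53.5 and 62.2 TPM in the neo-epithelium at day 14, and 9.32 to 17.6 TPM in the rectum of that day. Egfr showed no such difference over all days (0.01, SE 0.22, adjusted p 0.976), but at day 9 alone it was lower in the neo-epithelium, at 9.73, 12.1 and 15.7 TPM (-1), and passed. Epgn, below the filter over all days, was higher in the neo-epithelium at day 9 alone (2.03) and passed there. It met the filter on that day only through the neo-epithelium, as no rectal sample reached 1 TPM.

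Against the anus of the same mice, the neo-epithelium had more Areg (1.40, SE 0.29, adjusted p 6.80e-04, 9 of 9 mice), Ereg (0.89, SE 0.26, adjusted p 0.00799, 8 of 9), Tgfa (0.70, SE 0.10, adjusted p 3.14e-05, 9 of 9), Erbb3 (0.59, SE 0.17, adjusted p 0.00631, 7 of 9) and Egfr (0.37, SE 0.13, adjusted p 0.0205, 7 of 9). These are 5 of 7 members, against 59.8% of the 13256 genes tested (median 0.18, and 0.03 after median-ratio scaling, under which Egfr was no longer called, 0.20). For Hbegf the difference was 0.22 (SE 0.15, adjusted p 0.207). The lead of Areg and Ereg was widest at day 9, with differences of 2.71 and 2.05 on that day alone, both of which passed, beside 0.89 and 0.37 at day 20, neither of which did. The change of that lead between days was not tested. At day 9 the neutrophil sum was 6814 to 17204 TPM in the neo-epithelium and 906 to 3087 TPM in the anus, and the fibroblast sum 1944 to 2897 TPM and 1251 to 1624 TPM. At day 20 they were 480 to 5418 against 601 to 2420 TPM and 468 to 962 against 1516 to 1965 TPM. The part of these cells in the lead was not tested. Erbb3 was at -0.18 at day 9 alone, where it did not pass, and at 1.08 at day 20, where it did.

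**Figure D5:**
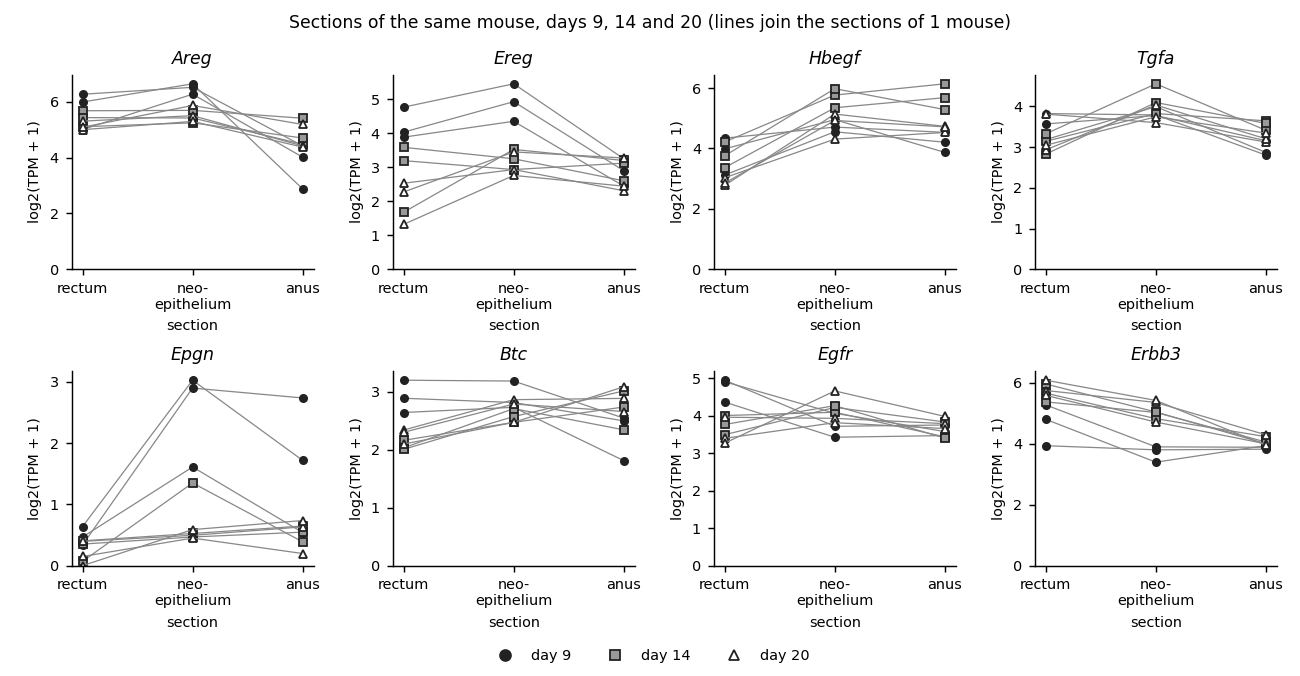
Level of the 8 genes, log2(TPM + 1), in rectum, neo-epithelium and anus; each line joins the sections of 1 of the 9 mice of days 9, 14 and 20. Hbegf rises and Erbb3 drops from rectum to neo-epithelium in 9 of 9 mice, and Areg is above the anus in 9 of 9.

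The 6 ligands together came to 29.6 to 42.5 TPM in the rectum at day 0 and to 91.8 to 154 TPM at day 6. In the neo-epithelium at day 9 they came to 141 to 185 TPM. Areg made up 43.0% of the sum in the rectum at day 0 and 60.2% at day 6 (means of 4 and 3 mice). In the anus Hbegf made up 38.0% at day 0 and 15.6% at day 6, when Ereg had gone from 7.71% to 36.2%. The leading ligand thus differed between sections and days. Over the 21 groups in order of mean level, neighbouring groups overlapped throughout for Areg, Ereg, Tgfa and Epgn. Ereg was highest in the anus at day 6 (33.0 TPM) and in the neo-epithelium at day 9 (30.6 TPM), Tgfa in the neo-epithelium at day 14 (17.3 TPM) and Btc in the anus at day 3 (7.51 TPM).

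Of the other ErbB genes, the neuregulin gene Nrg1, which encodes a ligand of ERBB3 and ERBB4, rose in the rectum from 0.321 to 0.422 TPM at day 0 to 1.20 to 6.70 TPM at day 6 (1.56, SE 0.35, adjusted p 0.00820) and 8.15 to 11.6 TPM at day 9 (2.96, SE 0.15, adjusted p 2.66e-06). No day 0 rectal sample reached 1 TPM of Nrg1, which met the filter in these 2 tests through the injured samples. In the anus it rose to 7.00 to 12.4 TPM at day 6 (2.84, SE 0.24, adjusted p 3.48e-04). Erbb2, the partner of ERBB3, fell with Erbb3 in the rectum, by 1.01 on the log2 scale at day 6 (SE 0.19, adjusted p 0.00394) and by 1.86 at day 9 (SE 0.24, adjusted p 2.37e-04), from 39.2 to 53.6 TPM at day 0 to 7.44 to 16.1 TPM. In the mid-colon it fell by 1.77 at day 9 (SE 0.26, adjusted p 4.28e-04). Erbb4 was listed at or below 0.0124 TPM in every sample and Egf, the ligand that names the family, at or below 1.69 TPM in every rectal sample.

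Among 4 genes of ligand release, Rhbdf2, which encodes a partner of ADAM17 on its way to the cell surface, rose in the rectum at day 9 by 1.81 (SE 0.23, adjusted p 2.57e-04) and Adam17 by 0.68 (SE 0.18, adjusted p 0.0123), while Adam10 (0.17, adjusted p 0.263) and Rhbdf1 (-0.32, adjusted p 0.309) did not pass (median of the 4 genes 0.43, all genes 0.13). Of 12 feedback inhibitors in the rectum, 4 rose and 4 fell at day 6 (median -0.16, all genes -0.27), and 6 rose and 3 fell at day 9 (median 0.18, all genes 0.13), where 48.7% and 53.5% of all genes were called. Dusp6, a phosphatase of the MAP kinase, rose by 1.02 at day 3 (SE 0.24, adjusted p 0.0391) and by 1.86 at day 6 (SE 0.21, adjusted p 4.85e-04). It rose by 1.51 at day 14 (SE 0.25, adjusted p 0.0131) and by 0.96 at day 20 (SE 0.19, adjusted p 0.0297). At day 9 Dusp6 was not among the called pathway genes of largest difference. Its value of that day is not given, so the course has a gap there and an unbroken rise is not stated. Lrig1, which encodes a negative regulator of ErbB receptors, fell by 1.36 on the log2 scale at day 6 (SE 0.16, adjusted p 6.04e-04).

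Of 12 transcriptional targets of the cascade, 11 were tested in the rectum. At day 6, 5 rose and 3 fell with a median of 0.37, beside -0.27 over all genes, and at day 9, 9 rose and 0 fell with a median of 1.43, beside 0.13. Of all genes tested, 48.7% were called at day 6 and 53.5% at day 9. Ier3, an early response gene, rose by 3.53 at day 9 (SE 0.38, adjusted p 9.35e-05), Phlda1 by 2.76 (SE 0.33, adjusted p 1.72e-04) and the cyclin gene Ccnd1 by 2.72 (SE 0.26, adjusted p 5.64e-05). At day 6 Ccnd1 had fallen by 0.89 on the log2 scale (SE 0.25, adjusted p 0.0176) and Myc by 0.52 (SE 0.18, adjusted p 0.0393). In the mid-colon at day 9, 6 of 11 rose and 2 fell (median 0.95, all genes 0.09), where 43.4% of all genes were called. In the anus, 2 of 12 rose and 0 fell at day 6 (median 0.67, all genes 0.07; 15.0% of all genes called), Fosl1 by 1.87 (SE 0.21, adjusted p 0.00105) and Ier3 by 0.67 (SE 0.19, adjusted p 0.0491). Of the 12 genes of the adaptors and kinases between receptor and target, 0 rose and 4 fell in the rectum at day 6 (median -0.28, all genes -0.27), and 1 rose and 3 fell at day 9 (median -0.08, all genes 0.13). In the neo-epithelium, Fosl1 fell by 1.95 and Ccnd1 by 1.70 on the log2 scale from day 9 to day 20. Between the responses of anus and rectum at day 9, 0 of the 12 targets were higher and 6 lower in the anus (median -1.70, all genes -0.12), Ier3 by -3.52 and Phlda1 by -3.51. In that comparison 19.9% of all genes were called. Many of these genes also answer to other signals.

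Likeness to other genes was measured as Pearson's r over the 21 group means of log2(TPM + 1), among 11369 genes. Groups share mice and sections, so r is a description only. The genes nearest to Ereg were Ccl2 (r 0.963) and Timp1 (r 0.961), and, once each section's average had been taken off, Cxcl1 (r 0.961) and Ccl7 (r 0.948). Ccl2, Ccl7 and Cxcl1 encode chemokines of monocytes and neutrophils, and Timp1 an inhibitor of metalloproteinases. Areg had no gene as near, with Arpc3 at r 0.820 and S100a10 at r 0.807. Erbb3 was nearest to Kcnk5 (r 0.987), a potassium channel gene, and Pik3r3 (r 0.984), a regulatory subunit of PI3 kinase. Of the rest, Hbegf was nearest to Zfand5 (r 0.924) and Casp12 (r 0.918), Tgfa to Capn2 (r 0.910) and Smurf1 (r 0.902), and Epgn to Tubb3 (r 0.907) and Nppc (r 0.888). Btc was nearest to Med31 (r 0.844) and Emp1 (r 0.843), and Egfr to Marcksl1 (r 0.892) and Rel (r 0.886). Between members, Ereg had an r of 0.59 with Areg, of 0.76 with Epgn and of 0.58 with Btc, which lie in the same cluster. With members on other chromosomes Ereg had an r of 0.65 (Hbegf), 0.59 (Egfr), 0.35 (Tgfa) and -0.77 (Erbb3). Areg and Epgn had an r of 0.14.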

How the data were processed

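Bulk stranded mRNA libraries of 66 tissue sections from 19 mice were sequenced as single-end reads, per the labels' protocols. The deposited table gives 1 value per transcript and sample, and these values behave as TPM estimated by the authors: once 1318 repeat rows were dropped, samples summed to between 999999.8 and 1000000.2. The submitters' processing notes name CASAVA, kallisto and mm10, without versions. Of 126860 rows, 37344 held no values, and the 88198 transcripts left were summed over 30452 genes, with 1284 transcripts lacking a gene. No read counts were used here, so depth is unknown and p-values reflect the spread between mice.

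Groups came from the labelled section and day. Differences of log2(TPM + 1) were tested with limma 3.58.1 in R 4.3.3 (moderated by the trend with mean level) on the groups of each comparison, for genes where the number of samples with 1 TPM or more reached the size of the smaller group, with p-values Benjamini-Hochberg adjusted over all genes tested, with calls under 0.05. Differences of response are interaction terms of section and day. The mouse ids pair sections of a mouse: deviations from the group means had a mean r of 0.291 between rectum and mid-colon, 0.0987 between anus and rectum, 0.25 between neo-epithelium and rectum and 0.153 between neo-epithelium and anus. Alternatives were median-ratio scaling, a pseudocount of 0.1, no filter, a filter of 5 TPM, 1 fit over all 21 groups, the mouse as a block, single days, and leaving out each mouse. The fit was tested on simulated data. Summaries and plots used matplotlib 3.10.9, pandas 2.3.3 and numpy 2.4.6 under Python 3.11.15.

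The members and gene lists were chosen with earlier results of these data known. Named genes are the 8 members, the called pathway genes of largest difference in a comparison, and the 2 genes nearest to each member by r; any other pathway gene named was chosen after its values were seen.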

Additional observations from a re-analysis of the deposited data

Results flagged for a closer look

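Each of the 8 genes was checked in the 3 day 0 groups of 4 samples for a sample far from the others, and 5 of these 24 sets held one, where chance marks about 1 set in 20. In the day 0 anus, mouse 4 had the lowest Areg, 14.8 TPM beside 23.0 to 24.2 TPM in the other 3 mice, and the lowest Hbegf, 18.2 TPM beside 28.5 to 29.8 TPM. The same section had the highest Tgfa, 10.7 TPM beside 7.50 to 7.84 TPM, and the highest Erbb3, 51.6 TPM beside 21.3 to 22.6 TPM. Its colonic marker sum of 3982 TPM was the highest of the 4, and its part in these values was not tested. In the day 0 rectum, 1 control had 8.67 TPM of Hbegf beside 3.84 to 4.42 TPM in the rest.

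Responses to DSS that differed between sections by the interaction test were those of Ereg at day 9 between rectum and mid-colon (1.78), of Areg (-1.86), Hbegf (-2.45), Btc (-0.93) and Epgn (1.82) at day 6 between anus and rectum, and of Areg (-2.45), Ereg (-3.06), Hbegf (-1.79), Btc (-1.47) and Egfr (-1) at day 9 between anus and rectum. The latter comparisons share the rectal samples of their day and the day 0 samples.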

How the results depend on the processing

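Of the members' differences that were called under at least 1 setting, all 72 that could be tested with a filter of 5 TPM kept direction and call. With a pseudocount of 0.1, 82 of 84 did, with median-ratio scaling 77 of 84, without a filter 74 of 84 and with 1 fit over all groups 72 of 84. With the mouse as replicate block, 28 of 31 did: Areg gained a call against the rectum (adjusted p 0.0312) and in its day 9 response (adjusted p 0.0259), and Egfr lost one (adjusted p 0.0598). Direction changed for Egfr in neo-epithelium against rectum at day 9 alone (-1) and for Erbb3 against anus at day 9 alone (-0.18). Epgn, below the filter in 4 further comparisons, was called there without one, with differences of 0.26 to 0.95. The cause was not tested for these or the following counts. Without a filter, the members called numbered 2 in the mid-colon at day 6, 2 and 0 in the rectum at days 14 and 20, and 0 in the day 9 response of rectum against mid-colon. With 1 fit over all groups they numbered 1 in the mid-colon at day 20, 1 in the rectum at each of days 3 and 20, 3 and 1 in the anus at days 9 and 20, and 0 in that response. It also fell to 0 with a pseudocount of 0.1 and rose to 2 with the block, and median-ratio scaling gave 1 in the anus at day 9. At day 9, 14 or 20 alone, 2, 2 and 1 members were called against the rectum, and 3, 2 and 1 against the anus, with 3 mice a group. Leaving out 1 mouse gave 2 to 5 called members in the mid-colon at day 6, 2 to 6 at day 9, 0 to 2 at days 14 and 20, 0 to 4 in the rectum at day 3, 1 to 4 at day 14, 0 to 2 at day 20, 2 to 4 in the anus at day 6, 2 to 4 between days of neo-epithelium and 0 to 1 in the day 9 response of rectum against mid-colon. Counts over all genes moved by over 1.5 times as follows. Median-ratio scaling changed 45 to 129 in the mid-colon at day 3, 529 to 1109 at day 14 and 189 to 512 at day 20, 973 to 1641 in the rectum at day 20, 6 to 2, 692 to 1100 and 201 to 348 in the anus at days 3, 9 and 20, and 216 to 106 for rectum against mid-colon at day 0. Without a filter, these became 4, 239 and 22 in the mid-colon (1022 from 1785 at day 6), 202 in the rectum (1189 from 2017 at day 14), 0, 373 and 59 in the anus (246 from 588 at day 14), and 34 at day 0. With 1 fit over all groups they became 68, 1062 and 1514, 63, 1932 and 1988, and 44, beside 288 from 818 in the rectum at day 3, 3626 from 2060 and 1424 from 588 in the anus at days 6 and 14, and 518 from 885 in the day 9 response of rectum against mid-colon, which was 444 with a pseudocount of 0.1. The filter of 5 TPM gave 318 in the mid-colon at day 14, 3 in the anus at day 3 and 119 at day 0, and the block 349 at day 0 and 76 from 0 in the day 6 response of rectum against mid-colon, which was 2 without a filter. Leaving out 1 mouse gave 7 to 71 calls in the mid-colon at day 3, 596 to 5248 at day 6, 62 to 1365 at day 14 and 31 to 1200 at day 20, and in the rectum 417 to 1282 at day 3, 386 to 5165 at day 14 and 52 to 2873 at day 20. In the anus it gave 0 to 12, 876 to 2130, 315 to 827, 162 to 557 and 25 to 237 at days 3, 6, 9, 14 and 20, for rectum against mid-colon 1 to 166 at day 0, 0 to 13 in the day 6 response and 340 to 1187 in that of day 9, for neo-epithelium between days 1021 to 4122, and 1898 to 3849 in the day 6 response of anus against rectum. Against the rectum, 5588 became 3447, 2045 and 736 on single days, and against the anus 7921 became 4381 and 2398 at days 14 and 20. Median-ratio scaling also moved the balance of higher and lower genes: in the rectum at day 6 from 1455 and 4690 to 2224 and 2445, in the mid-colon at day 6 from 590 and 1195 to 1053 and 872, in the anus at day 6 from 1186 and 874 to 1049 and 1368, and in the day 6 response of anus against rectum from 2243 and 897 to 1131 and 1632. The same held at day 0 for anus against rectum (3413 and 4523 to 4594 and 3825) and rectum against mid-colon (183 and 33 to 62 and 44), for neo-epithelium against anus (5311 and 2610 to 3867 and 3696) and between its days (1335 and 2124 to 1833 and 1543), in the rectum at day 14 (804 and 1213 to 1368 and 1182), in the mid-colon at day 20 (82 and 107 to 279 and 233) and in the day 9 response of anus against rectum (642 and 2294 to 1170 and 2420). With 3 mice a group and no read counts, differences of genes with few TPM, such as Epgn, are the least certain.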
